A study of Mus musculus with 8 samples.

Results

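The 10 genes described here, Lifr, Il6st, Jak1, Stat3, Socs2, Socs3, Pim1, Pim3, Junb and Ier3, belong to the LIF, JAK and STAT3 pathway of mouse embryonic stem cells (ESCs). They were taken by symbol from the 50902 genes of the deposited expression table, with a single entry per symbol on its main chromosome. All 10 were above 0 in all 8 libraries. RNA-seq was made from E14 ESCs, an established line, grown in N2B27 medium with LIF and the 2 inhibitors of 2i. Both groups carried a Flag- and HA-tagged BAZ2A transgene that the siRNA cannot target, inserted with PiggyBac, and both were transfected with siRNA against the endogenous Baz2a and harvested 3 days later. In ESC + F/H-BAZ2Ar WT (4 libraries) the transgene was wild type, and in ESC + F/H-BAZ2Ar ΔTAM (4 libraries) it lacked the TAM domain, with which BAZ2A binds RNA. The comparison therefore asked how RNA levels differ when BAZ2A lacks this domain, and the lines are called WT and ΔTAM from here on. The transgenic lines were isolated as single-cell clones, without a statement of how many are represented here. Parental cells without a transgene were not analysed here, and no label says that the 4 libraries of a line came from separate cultures, so that p-values measure the spread between libraries only. A difference between the lines and an effect of the TAM domain cannot be told apart.

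LIF is the cytokine that keeps mouse ESCs undifferentiated in culture. It joins the LIF receptor LIFR to gp130, the signalling chain encoded by Il6st, and the kinase JAK1 bound to these chains phosphorylates them and the transcription factor STAT3. STAT3 then enters the nucleus and switches on genes that sustain self-renewal, such as Klf4 and Tfcp2l1, together with Socs3, whose product shuts the receptor complex down again. Phosphorylated STAT3 itself was not measured by these libraries. Fewer cells with an RNA and less of that RNA per cell cannot be told apart in such bulk samples.

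Of the 10 members, 3 were higher in ΔTAM (Il6st, Stat3 and Junb), 3 were lower (Socs3, Pim1 and Pim3) and 4 did not pass the test (Lifr, Jak1, Socs2 and Ier3). The test was limma on log2(RPKM + 0.1) over the 9000 genes that averaged 0.1 RPKM or more, with Benjamini-Hochberg adjustment over all of them and a threshold of 0.05. By the same rule, 19.9% of all genes tested were higher and 15.9% were lower in ΔTAM, beside 3 of 10 members in each direction. The median log2 fold change of the members was -0.094, against 0.011 over all genes tested. With the thresholds stated by the study, 0.58 or more in either direction on the log2 scale together with p under 0.05, here taken before adjustment since the study does not say, 1 member (Junb) was called, against 3.79% of all genes. Every ΔTAM library lay above every WT library for 4 members and below for 4 others, where 20.5% and 16.7% of all genes did so.

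The values are RPKM, reads scaled to library size and gene length, and the length is that of the whole gene from start to end, introns included. A long gene such as Jak1 or Lifr therefore has a low RPKM even with many reads. The reads behind each value could be recovered, and a second fit (limma voom) was made on them over 12657 genes averaging 10 reads or more. It called 4 members higher and 5 lower, while 21.9% of all genes were higher and 21.9% lower. Lifr, Jak1 and Ier3 passed the threshold in that fit only, with the same direction in both fits. RPKM of Lifr and Jak1 were close to the pseudocount of 0.1, which draws their fold changes toward 0 in the first fit. With a pseudocount of 0.01 RPKM their log2 fold changes were -0.14 and 0.12, and neither was called (limma adjusted p = 0.169 and 0.141).

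**Figure D1:**
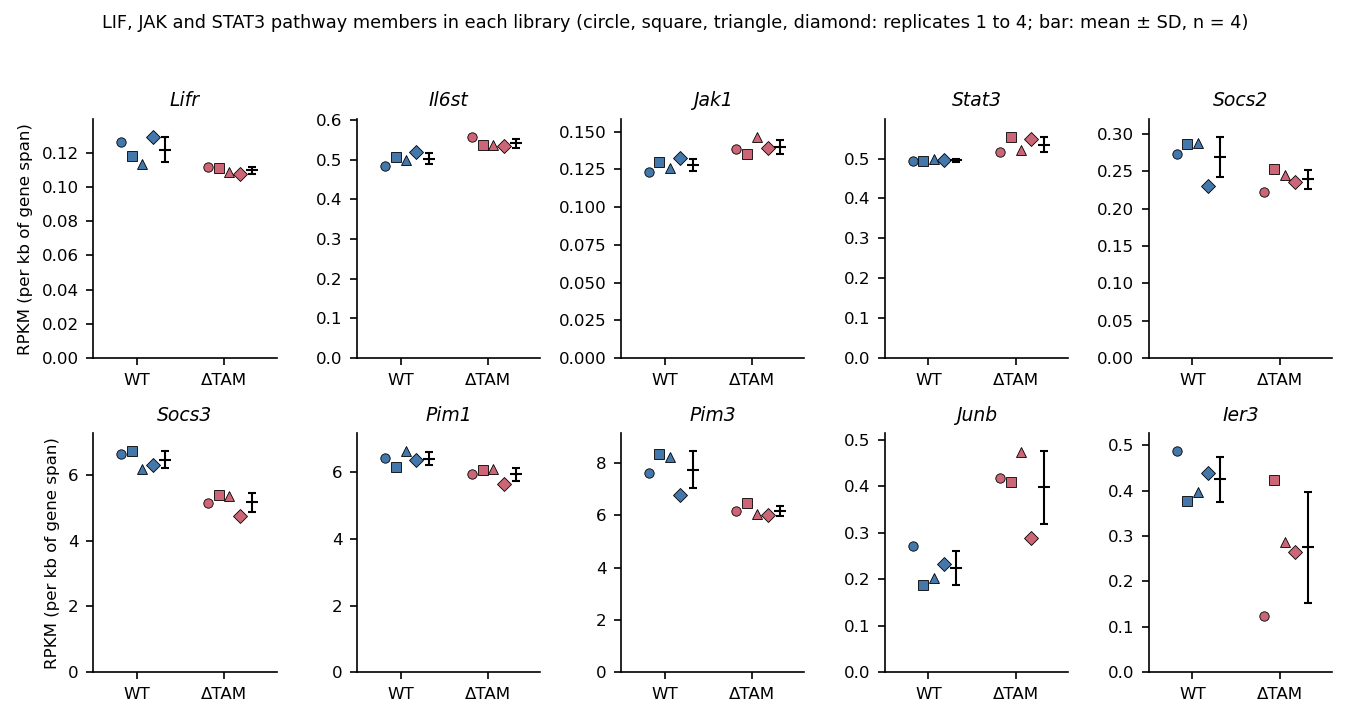
RPKM (per kb of gene span) of each of the 10 members in the 4 WT libraries (blue) and the 4 ΔTAM libraries (red). Symbols mark the replicate number and black bars the mean ± SD (n = 4). Socs3, Pim1, Pim3 and Lifr were lower in every ΔTAM library than in any WT library, Il6st, Jak1, Stat3 and Junb were higher, and Socs2 and Ier3 overlapped.

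The promoters of the 3 members with the largest called changes are given here, since these genes moved in opposite directions. The sequences are those upstream of the RefSeq start of each gene (GRCm38.p6), 5′ to 3′ on the strand of the gene, up to the first base that GENCODE vM21 places in an exon of it. Capitals mark a match to TTCNNNGAA, the palindrome to which STAT dimers bind, which reads the same on both strands. The Socs3 sequence is chr11:117969452-117969616, minus strand, and lies inside the span of the gene as deposited. That of Pim3 is chr15:88861944-88862185, plus strand, and that of Junb is chr8:84978749-84978998, minus strand.
Socs3: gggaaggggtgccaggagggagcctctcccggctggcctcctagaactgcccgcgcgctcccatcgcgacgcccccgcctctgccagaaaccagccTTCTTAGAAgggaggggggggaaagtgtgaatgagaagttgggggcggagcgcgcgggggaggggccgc
Pim3: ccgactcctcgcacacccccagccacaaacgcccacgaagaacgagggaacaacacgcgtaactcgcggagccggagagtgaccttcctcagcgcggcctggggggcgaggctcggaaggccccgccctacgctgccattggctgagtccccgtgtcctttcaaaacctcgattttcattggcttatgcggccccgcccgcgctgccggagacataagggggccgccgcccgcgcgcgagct
Junb: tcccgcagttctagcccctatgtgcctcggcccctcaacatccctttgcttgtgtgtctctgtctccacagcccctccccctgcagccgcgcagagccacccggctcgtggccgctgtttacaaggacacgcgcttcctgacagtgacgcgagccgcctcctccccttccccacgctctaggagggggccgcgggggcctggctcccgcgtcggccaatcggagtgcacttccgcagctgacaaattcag

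The Socs3 promoter held 1 match, TTCTTAGAA, whose first base lay 154 bases before the RefSeq start, and those of Pim3 and Junb held none. RefSeq windows of 250 bases before to 50 after a start were at hand for 9 of the 10 members (11 windows), and only that of Socs3 had a match. Among all 32851 such promoter windows, 2726 (8.30%) contained these letters. Of the 38 other genes of the pathway with a window, 3 had a match. A match is no measured binding site, and these letters in a short window say nothing of STAT3 bound elsewhere.

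Compared per length of exon, 3 members stood above the others. Pim3, Pim1 and Socs3 were the most abundant, at exon RPKM (the same reads scaled to the length of all exons) of 11.3 ± 1.03, 10.1 ± 0.305 and 8.86 ± 0.357 in WT (SD, n = 4). Stat3 (2.83 ± 0.0175), Il6st (2.08 ± 0.0587), Jak1 (2.00 ± 0.0636) and Lifr (1.21 ± 0.0735) followed, and Socs2 (0.900 ± 0.0892), Ier3 (0.465 ± 0.0535) and Junb (0.412 ± 0.0671) were lowest. The WT libraries overlapped between Pim3 and Pim1, between Il6st and Jak1 and between Ier3 and Junb, and did not between the other neighbours in this order. In ΔTAM the means on this scale were 9.34 for Pim1, 8.97 for Pim3 and 7.08 for Socs3, and Pim1 overlapped Pim3 again. Junb (0.732 ± 0.144) stood above Ier3 (0.301 ± 0.134) in ΔTAM, with every Junb library above every Ier3 library. The abundant group thus consisted of the inhibitor Socs3 and the kinases Pim1 and Pim3, with the receptor chains, JAK1 and STAT3 below them. Level did not follow role throughout, since the inhibitor Socs2 was lower still, as were Junb and Ier3.

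**Figure D2:**
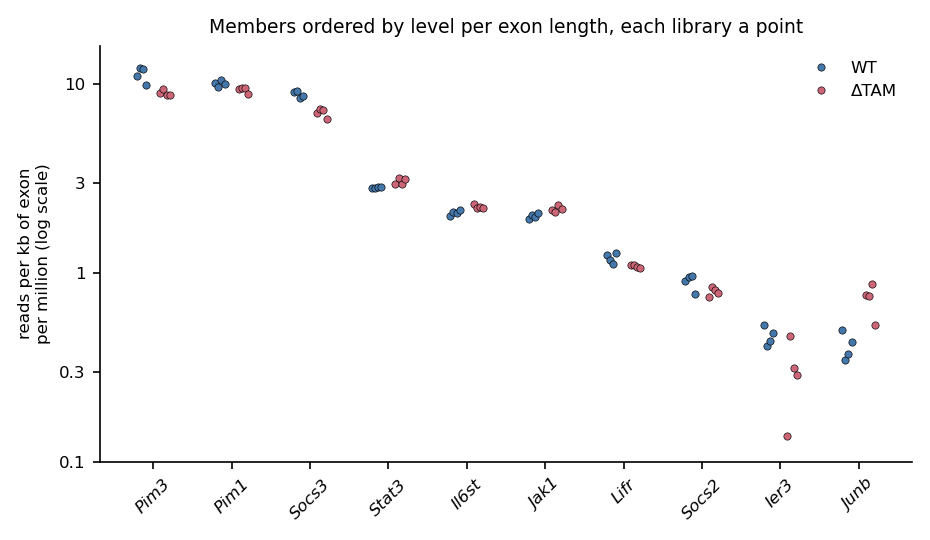
Level of each member per length of exon (exon RPKM, log axis) in the 4 WT (blue) and 4 ΔTAM (red) libraries, with genes ordered by their WT mean. Pim3, Pim1 and Socs3 were highest in both lines, and the means of WT and ΔTAM were 0.412 and 0.732 for Junb and 0.465 and 0.301 for Ier3.

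Il6st, which encodes gp130, the chain shared by all cytokines of the IL-6 family, was slightly higher in ΔTAM. It is on chr13:112464070-112510086, plus strand (mm10, as all gene positions given). Its RPKM were 0.484, 0.506, 0.499 and 0.518 in WT replicates 1 to 4 and 0.558, 0.536, 0.537 and 0.535 in ΔTAM. Each ΔTAM library was above each WT library, from 1080 to 1431 reads, and the highest ΔTAM library was replicate 1. The mean increased by 7.86%, from 0.502 ± 0.0142 to 0.541 ± 0.0109 (SD, n = 4), a log2 fold change of 0.092 (SE 0.026, limma adjusted p = 0.0294). The call was lost in 7 of the 8 fits without 1 library, in which the adjusted p ranged from 0.0257 to 0.0741, and held without WT replicate 4. It was also lost with quantile normalization (adjusted p = 0.109).

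Lifr, the chain specific to LIF and its closest relatives, had an estimate of the opposite sign that did not pass the test. The gene is on chr15:7090614-7197489, plus strand. Its RPKM were 0.126, 0.118, 0.113 and 0.129 in WT and 0.111, 0.111, 0.109 and 0.107 in ΔTAM. The ΔTAM libraries lay closely together, just below the lowest WT library. The mean was 0.122 ± 0.00741 in WT and 0.110 ± 0.00184 in ΔTAM, and the log2 fold change was -0.081 (SE 0.039, limma adjusted p = 0.149). On recovered reads, 589 to 713 in WT and 519 to 667 in ΔTAM, the log2 fold change was -0.15 (SE 0.052, limma voom adjusted p = 0.0223).

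Jak1 encodes the kinase that phosphorylates gp130, LIFR and STAT3, and lies on chr4:101152367-101265282, minus strand. Its RPKM were 0.123, 0.130, 0.126 and 0.133 in WT and 0.138, 0.135, 0.147 and 0.140 in ΔTAM. All ΔTAM libraries were above the WT libraries, by a narrow margin between WT replicate 4 and ΔTAM replicate 2. The log2 fold change was 0.073 (SE 0.034), with a limma adjusted p of 0.135, and 0.13 (SE 0.046) on recovered reads, with a limma voom adjusted p of 0.0230. These were 693 to 773 reads per library in WT and 670 to 915 in ΔTAM. At its 3′ end Jak1 overlaps Raver2 on the opposite strand, at chr4:101152367-101152370, and Raver2 had 98 to 145 reads.

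Stat3, the transcription factor of the pathway, was higher in ΔTAM by about as much as Il6st. It is on chr11:100885098-100939540, minus strand. Its RPKM were 0.493, 0.493, 0.499 and 0.497 in WT and 0.518, 0.555, 0.521 and 0.548 in ΔTAM. The WT libraries were nearly equal, and all 4 ΔTAM libraries were above them. The mean increased by 7.99%, from 0.496 ± 0.00307 to 0.535 ± 0.0188 (SD, n = 4), and the log2 fold change was 0.092 (SE 0.027, limma adjusted p = 0.0306). The call was lost in 6 of the 8 fits without 1 library, with adjusted p from 0.0251 to 0.0817, and held without ΔTAM replicates 1 or 3. It was also lost with quantile normalization (adjusted p = 0.0918). An exon of Stat3 overlaps one of Stat5a on the opposite strand at chr11:100885098-100885169, and Stat5a had only 85 to 98 reads in WT and 47 to 64 in ΔTAM, against 1274 to 1732 for Stat3 over all libraries.

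The inhibitors of the SOCS family bind activated receptors or JAK kinases and stop the signal. Socs3, the inhibitor that acts on gp130 and JAK1, was lower in ΔTAM, and is on chr11:117966079-117970047, minus strand. Its RPKM were 6.64, 6.71, 6.18 and 6.30 in WT and 5.15, 5.37, 5.34 and 4.76 in ΔTAM. The lowest WT library was well above the highest ΔTAM library, and ΔTAM replicate 4 was lowest of all. The mean dropped by 20.2%, from 6.46 ± 0.260 to 5.16 ± 0.282 (SD, n = 4), with a log2 fold change of -0.32 (SE 0.046, limma adjusted p = 0.00158). The call held without each library in turn, with log2 fold changes from -0.34 to -0.28. The libraries held 1194 to 1372 Socs3 reads in WT and 924 to 1130 in ΔTAM, on which limma voom gave -0.33 (SE 0.044, adjusted p = 3.1e-06).

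Socs2, better known as the inhibitor of growth hormone signalling, showed no such separation. The gene is on chr10:95385362-95417180, minus strand. Its RPKM were 0.272, 0.287, 0.288 and 0.231 in WT and 0.222, 0.253, 0.245 and 0.236 in ΔTAM. WT replicate 4 lay inside the range of ΔTAM, while the other WT libraries were above it. The log2 fold change was -0.12 (SE 0.058, 95% confidence interval -0.26 to 0.013, limma adjusted p = 0.142). Without WT replicate 4 it was -0.17, with an adjusted p of 0.0182, so that this library decided the call.

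PIM kinases are serine/threonine kinases without a regulatory domain, and their activity follows their amount, which STAT factors raise. Pim3, on chr15:88862186-88865718, plus strand, was lower in ΔTAM by as much as Socs3. Its RPKM were 7.63, 8.33, 8.23 and 6.79 in WT and 6.14, 6.45, 6.05 and 6.00 in ΔTAM. WT libraries varied more than ΔTAM libraries, yet even WT replicate 4 was above every ΔTAM library. The mean decreased by 20.4%, from 7.74 ± 0.708 to 6.16 ± 0.201 (SD, n = 4), a log2 fold change of -0.32 (SE 0.065, limma adjusted p = 0.00702). The call held without each library in turn, with log2 fold changes from -0.38 to -0.28.

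Pim1, on chr17:29490812-29496111, plus strand, was lower by a smaller amount. Its RPKM were 6.42, 6.16, 6.63 and 6.35 in WT and 5.94, 6.05, 6.08 and 5.64 in ΔTAM. The groups did not overlap, but WT replicate 2 and ΔTAM replicate 3 were close. The mean decreased by 7.25%, from 6.39 ± 0.194 to 5.93 ± 0.202 (SD, n = 4), a log2 fold change of -0.11 (SE 0.034, limma adjusted p = 0.0405). The call was lost in 7 of the 8 fits without 1 library (adjusted p from 0.0377 to 0.0954, held without WT replicate 2) and also without the filter on low values (adjusted p = 0.0681) and without the mean-variance trend (adjusted p = 0.0501). The antisense gene Gm26885, which overlaps the 5′ part of Pim1, had 0 to 3 reads per library. Pim2, the other gene of this family, had a log2 fold change of 0.064 (SE 0.080, limma adjusted p = 0.571) with overlapping groups.

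Junb, a component of the AP-1 transcription factor, had the largest change of the members, and is on chr8:84974484-84978718, minus strand. Its RPKM were 0.271, 0.188, 0.204 and 0.233 in WT and 0.418, 0.410, 0.474 and 0.289 in ΔTAM. ΔTAM replicate 4 was just above WT replicate 1, and the other 3 ΔTAM libraries stood far above all WT libraries. The mean increased by 77.5%, from 0.224 ± 0.0364 to 0.398 ± 0.0780 (SD, n = 4), a log2 fold change of 0.61 (SE 0.13, limma adjusted p = 0.00860). These values rested on 41 to 57 reads per library in WT and 71 to 107 in ΔTAM, and on reads the log2 fold change was 0.80 (SE 0.17, limma voom adjusted p = 5.4e-04). The call held without each library in turn, with log2 fold changes from 0.54 to 0.73. The deposited span of Junb overlaps exons of Prdx2 on the opposite strand at chr8:84974484-84974834, and Prdx2 had 1224 to 1624 reads per library. The library kit was stranded, but whether strand was used in counting is not given in the sources used here, and the share of Prdx2 reads in the Junb value was not tested.

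Ier3, an early response gene that limits apoptosis, had the fewest reads of the members, and is on chr17:35821684-35822923, plus strand. Its RPKM were 0.487, 0.376, 0.398 and 0.438 in WT and 0.125, 0.424, 0.288 and 0.264 in ΔTAM. ΔTAM replicate 1 had 7 reads, against 24 to 30 in WT, while ΔTAM replicate 2 had 23 reads and lay within the WT range. The mean was 0.425 ± 0.0488 in WT and 0.275 ± 0.122 in ΔTAM (SD, n = 4), and the log2 fold change was -0.54 (SE 0.23, limma adjusted p = 0.107). On reads it was -0.72 (SE 0.27, limma voom adjusted p = 0.0343). Without ΔTAM replicate 2 the first fit gave -0.72 with an adjusted p of 0.0314, and without ΔTAM replicate 1 it gave -0.32 with an adjusted p of 0.121. Over the 8 fits without 1 library the adjusted p ranged from 0.0314 to 0.211, and Ier3 was called in that without ΔTAM replicate 2 alone.

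In an exact two-sided permutation test on RPKM, groups without overlap always give p = 0.0286, the smallest that 4 against 4 libraries can give. For the 8 members without overlap this p only restates the separation, which 20.5% (above) and 16.7% (below) of all genes also had. By the same test p was 0.114 for Socs2 and 0.0857 for Ier3. In limma, 6 of the 8 members without overlap had an adjusted p under 0.05. The others, Lifr and Jak1, had limma p of 0.0750 and 0.0658 before adjustment.

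**Figure D3:**
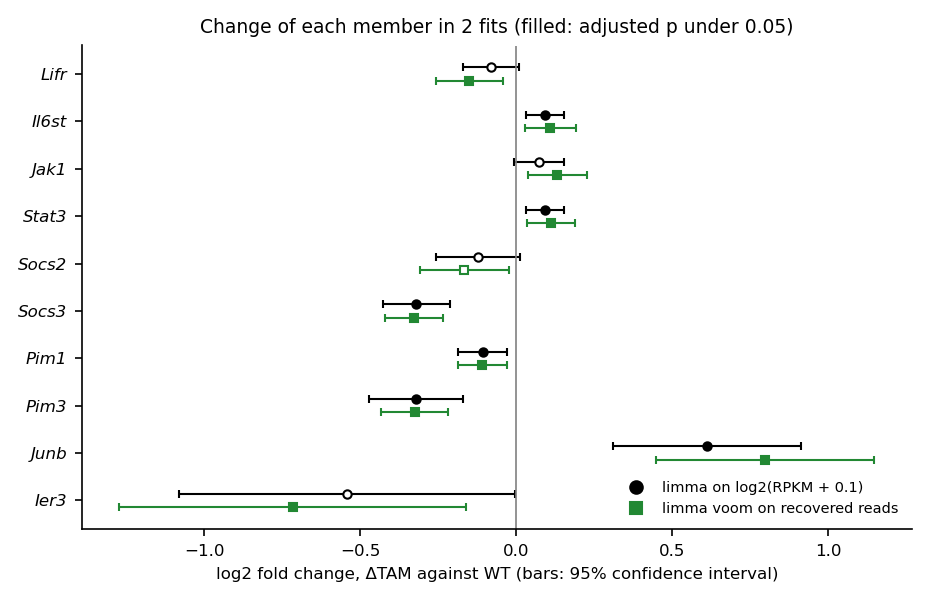
Log2 fold change of each member in ΔTAM against WT, from limma on log2(RPKM + 0.1) (black) and limma voom on recovered reads (green), with 95% confidence intervals and filled symbols for an adjusted p under 0.05. Estimates of both fits had the same sign for all 10 members, and Junb (0.61 and 0.80) and Ier3 (-0.54 and -0.72) had the widest intervals.

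To place the members among the rest of the pathway, 52 further genes were taken by role. Of these, 51 were above 0 in at least 1 library, 28 were abundant enough to be tested, and 7 were higher, 7 lower and 14 not called in ΔTAM (limma, adjusted p under 0.05), beside 19.9% and 15.9% of all genes. Their median log2 fold change was 0.064. On recovered reads 44 could be tested, of which 13 were higher and 11 lower, beside 21.9% of all genes in each direction. Unless said otherwise, the genes named next with values from recovered reads were too low for the first fit, and the names outside the rule given in the methods were chosen after their values were seen.

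Among the ligands, oncostatin M (Osm), which signals through gp130, had the largest increase of the genes tested in the list. Its RPKM were 0.231, 0.185, 0.227 and 0.210 in WT and 0.610, 0.560, 0.509 and 0.527 in ΔTAM, and the lines were far apart relative to their spread. These came from 44 to 53 reads in WT and 113 to 141 in ΔTAM. The log2 fold change was 1.05 (SE 0.064, limma adjusted p = 4.0e-05) and 1.36 on reads (SE 0.13, limma voom adjusted p = 1.6e-08). Lif itself had 47 to 83 reads in WT and 67 to 102 in ΔTAM, and overlapped between the lines, with a log2 fold change of 0.45 on reads (SE 0.15, limma voom adjusted p = 0.0211). Il6 was at 0 in all 8 libraries, a count that allows up to 3 reads per library, and Osmr, the receptor chain of oncostatin M, had 0 to 4 reads per library.

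Among the kinases, 2 of the 3 other JAK family members were tested and both were lower in ΔTAM, beside 15.9% of all genes. Jak3, the kinase of the common gamma chain, had a log2 fold change of -0.29 (SE 0.049, limma adjusted p = 0.00293) and Tyk2 of -0.17 (SE 0.026, adjusted p = 0.00178). Jak2, by contrast, had 104 to 117 reads in WT and 160 to 208 in ΔTAM, a log2 fold change of 0.69 on reads (SE 0.097, limma voom adjusted p = 4.7e-06). Jak1 thus shared its direction with Jak2 and not with Jak3 or Tyk2.

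Of the other STAT genes, Stat6, which transmits IL-4 signals, was lower, with a log2 fold change of -0.20 (SE 0.033, limma adjusted p = 0.00281). Stat5a (-0.65, SE 0.12, limma voom adjusted p = 1.9e-04) and Stat5b (-0.32, SE 0.073, limma voom adjusted p = 0.00104) were lower on reads. Both lie beside Stat3 on chromosome 11, in a cluster in which Stat3 was the gene with the opposite sign.

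Of 14 other inhibitors and phosphatases 10 were tested with limma, and 1 was lower, Ptpn6 (SHP-1, -0.27, SE 0.082, adjusted p = 0.0352). That call was lost in 6 of the 8 fits without 1 library, with adjusted p up to 0.0877, and held without WT replicate 4 or ΔTAM replicate 2. It was also lost without the filter on low values (adjusted p = 0.0796). With limma 0 were higher at an adjusted p under 0.05, and over all genes 15.9% were lower and 19.9% higher. At an unadjusted p under 0.05, 4 were higher, beside 2252 of the 9000 genes tested. On reads, limma voom called 3 higher and 2 lower, beside 21.9% of all genes in each direction. Higher were Socs4 (0.20, voom adjusted p = 0.0333), Socs7 (0.17, voom adjusted p = 0.0295) and Pias2 (0.11, voom adjusted p = 0.0222). Limma on RPKM had tested and not called these 3 (adjusted p of 0.0914, 0.0730 and 0.0634). Lower were Ptpn6 and Socs5 (-0.33, voom adjusted p = 0.00862). Socs1, the closest relative in function, had 11 to 22 reads in a library, and its log2 fold change was 0.086 (SE 0.18, 95% confidence interval -0.34 to 0.51, limma adjusted p = 0.746).

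Adaptors that link gp130 to the RAS and ERK branch were higher in ΔTAM for all 3 tested of 4 listed, beside 19.9% of all genes. Grb2, which recruits the RAS exchange factor SOS, had a log2 fold change of 0.28 (SE 0.046, limma adjusted p = 0.00271), Shc1 of 0.26 (SE 0.024, adjusted p = 2.0e-04) and Gab1 of 0.11 (SE 0.029, adjusted p = 0.0258). The call of Gab1 was lost in 6 of the 8 fits without 1 library, with adjusted p up to 0.0661, and held without WT replicate 1 or ΔTAM replicate 1. It was also lost with quantile normalization. Gab2 had 2 to 15 reads per library and was not tested. In these cells 2i contains an inhibitor of MEK, which lies on this branch.

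Of 12 listed targets of STAT3, 9 were tested, 3 were higher, 3 were lower and 3 did not pass, beside 19.9% of all genes higher and 15.9% lower. Klf4, which mediates the LIF signal toward Sox2, was lower, with RPKM of 11.4, 11.1, 11.3 and 11.0 in WT and 8.40, 8.52, 8.79 and 8.31 in ΔTAM. These groups were far apart relative to their spread, and the log2 fold change was -0.39 (SE 0.025, limma adjusted p = 4.5e-05). Gbx2, a homeobox gene that can sustain self-renewal downstream of STAT3, was higher, with RPKM of 0.880, 0.831, 0.790 and 0.685 in WT and 1.50, 1.69, 1.67 and 1.51 in ΔTAM. Its mean went up by 99.7% and its log2 fold change was 0.92 (SE 0.074, limma adjusted p = 1.2e-04). Tfcp2l1, another mediator of self-renewal by LIF, had 10135 to 13067 reads in a library, and its log2 fold change was -0.028 (SE 0.024, 95% confidence interval -0.084 to 0.027, limma adjusted p = 0.393). For Tfcp2l1, a change as large as that of Klf4 was outside this interval.

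Of the other targets tested, the anti-apoptotic Mcl1 (0.22, SE 0.049, limma adjusted p = 0.0102) and Bcl2l1 (0.26, SE 0.048, limma adjusted p = 0.00478) were higher, and Mcl1 lost its call with quantile normalization (adjusted p = 0.0837). Klf5 (-0.13, SE 0.036, limma adjusted p = 0.0246) and Bcl3 (-0.14, SE 0.038, limma adjusted p = 0.0275) were lower, and each of these calls was lost in 5 of the 8 fits without 1 library, with adjusted p up to 0.0668 and 0.0721. They held without WT replicate 4, without WT replicate 1 or ΔTAM replicate 3 for Klf5, and without WT replicate 3 or ΔTAM replicate 4 for Bcl3. Ccnd1 (-0.041, limma adjusted p = 0.584) and Cebpd (-0.050, limma adjusted p = 0.811) did not pass. The repressor Bcl6 had 127 to 169 reads in WT and 57 to 83 in ΔTAM, a log2 fold change of -1.10 on reads (SE 0.12, limma voom adjusted p = 9.0e-08). Myc, with 16 to 29 reads per library, had a log2 fold change of -0.037 on reads (SE 0.23, 95% confidence interval -0.51 to 0.44, limma voom adjusted p = 0.914), so that this depth could not show a change smaller than that interval.

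**Figure D4:**
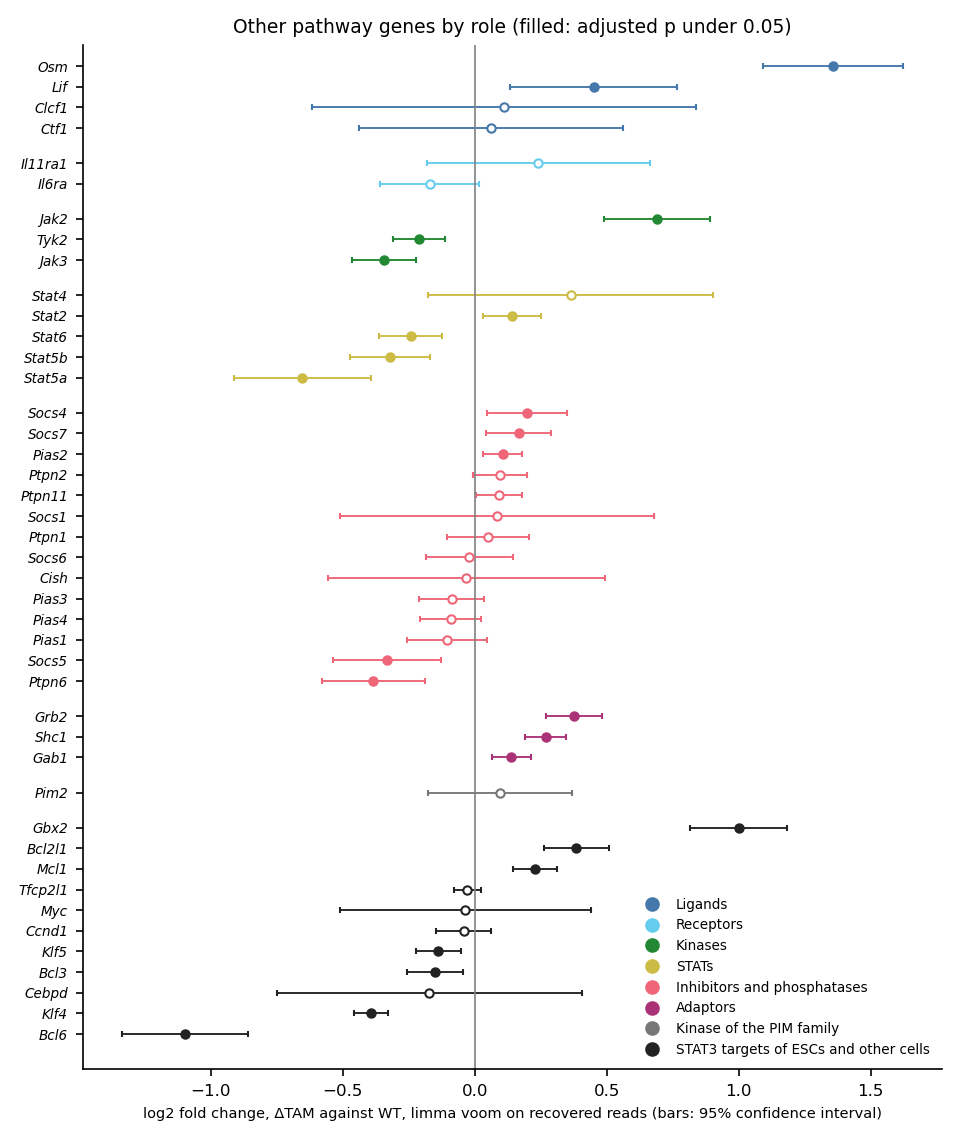
Log2 fold change in ΔTAM against WT of other pathway genes tested on recovered reads (limma voom), grouped by role, with 95% confidence intervals and filled points for an adjusted p under 0.05. Osm (1.36) was highest, Bcl6 (-1.10) and Stat5a (-0.65) were lowest, and the 3 adaptors lay above 0.

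Junb and Ier3 are also immediate-early genes, which respond within minutes to serum, stress or cytokines. Of 15 other genes of this class, 8 were tested. Of these, 2 were lower, 0 were higher and 6 did not pass, beside 15.9% of all genes lower and 19.9% higher. The lower genes were Ier5 (-0.19) and Klf6 (-0.19), with limma adjusted p of 0.0232 and 0.0332. At an unadjusted p under 0.05, 0 were higher as well, beside 2252 of the 9000 genes tested. The call of Ier5 was lost in 3 of the 8 fits without 1 library (without WT replicates 2 or 4 or ΔTAM replicate 4) and that of Klf6 in 4 (without WT replicates 1, 3 or 4 or ΔTAM replicate 2). That of Klf6 was also lost without the filter on low values (adjusted p = 0.0699). On recovered reads, 11 could be tested, 1 was higher and 2 were lower, beside 21.9% of all genes in each direction. Fosl2 was higher (1.27, limma voom adjusted p = 0.00478), from 4 to 11 reads in WT to 11 to 18 in ΔTAM. Its RPKM overlapped between the lines. Atf3 (from 39 to 54 reads in WT to 18 to 24 in ΔTAM, limma voom adjusted p = 1.6e-04) and Klf6 were lower. Ier5 was not called in that fit (limma voom adjusted p = 0.0825). Jund, the closest relative of Junb that could be tested besides Jun, had a log2 fold change of 0.20 (SE 0.11, limma adjusted p = 0.184) and Jun of -0.22 (SE 0.15, limma adjusted p = 0.307). Fos, the usual partner of JUNB, had 10 to 25 reads in WT and 3 to 16 in ΔTAM.

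Libraries held 7.26 to 7.69 M (mega) reads on genes in WT and 6.56 to 8.66 M in ΔTAM. Baz2a RNA, in which the transgene and the endogenous gene cannot be told apart, differed between the lines, with 10.5 ± 0.529 RPKM in WT and 18.3 ± 0.824 in ΔTAM (SD, n = 4; log2 fold change 0.79, SE 0.046, limma adjusted p = 3.4e-05). Total Baz2a RNA therefore moved with the comparison, and its part in the results was not tested. ESC markers were present in all libraries, with summed RPKM of 8 markers of 367 to 376 in WT and 292 to 319 in ΔTAM. Most of this sum was Dppa5a, with a mean RPKM of 283 in WT and 233 in ΔTAM. Of the 8 markers, 5 were lower in ΔTAM and 3 did not pass (Pou5f1, Nanog and Zfp42), beside 15.9% of all genes lower. The part of the lower ESC markers in the lower level of Socs3, Pim3 and Klf4 was not tested. Fibroblast markers were at most 10 reads for any gene and library, with Col3a1 and Dcn at 0. The 6 primitive endoderm markers summed to 0.0183 to 0.0445 RPKM in WT and 0.0361 to 0.0612 in ΔTAM, from 47 to 55 and 63 to 82 reads. Those of the trophectoderm, which ESCs express in part, summed to 1.41 to 1.47 RPKM in WT and 1.41 to 1.72 in ΔTAM.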

How the data were processed

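Total RNA was poly(A)-enriched, made into stranded libraries and sequenced single-end. The authors trimmed adapters and mapped to mm10 with STAR, and the submitters' processing notes also name FastQC, Trimmomatic 0.36 and DESeq2. The deposited values were RPKM, given separately for every library. The annotation release and the strand setting of counting are not given in the sources used here. Once multiplied by gene span, RPKM of a library were multiples of its smallest unit, taken as 1 read, and reads were recovered in this way (100% of values whole within 0.01 reads). The totals to which RPKM were scaled were 43.8 to 58.1 M reads per library. Of 51288 entries, 386 repeated entries were set aside.

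The lines were compared with limma 3.58.1 (R 4.3.3) on log2(RPKM + 0.1), moderating variances along a trend with the mean and using no covariates, and fold changes understate the change of genes near the pseudocount of 0.1. This scaling and fit were checked on simulated data with 200 changed genes. Limma voom on recovered reads, other pseudocounts, filters and scalings, a replicate block and leaving out each library were alternatives. Levels per exon used GENCODE vM21 exons, 8 of the 10 members having the same coordinates there. Promoters came from RefSeq. Tables were handled with Python 3.11.15 and pandas 2.3.3.

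The members and all lists were chosen with earlier results of these data known. Named were all 10 members, the other pathway and immediate-early genes changed by 0.3 or more on the log2 scale, in either direction, at an adjusted p under 0.05 (at most 10 of each list), Lif, Osmr, Jak2, Socs1, Klf4, Tfcp2l1, Gbx2 and Myc whatever their values, and Baz2a. The rule of size selected Osm, Gbx2 and Klf4, and 1 further gene named by the rule is not reported here.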

Additional observations from a re-analysis of the deposited data

Results flagged for a closer look

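In 32 groups of 4 libraries, formed in each line by the 16 named genes abundant enough for limma on log2(RPKM + 0.1), the gap of the highest or lowest library to its neighbour was compared with the range of the group by Dixon's test at its 95% critical value. The RPKM of Il6st in ΔTAM replicate 1, 0.558, was the single value past it, above the other 3 ΔTAM libraries at 0.535 to 0.537. Chance flags about 1 in 20 such groups. Without this library the log2 fold change of Il6st was 0.080, with a limma adjusted p of 0.0631, and the other ΔTAM libraries remained above every WT library.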

How the results depend on the processing

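Over 163 values of the members under alternatives, the direction was the same in all, 131 stayed on the same side of the threshold, 27 lost the call and 5 gained it. Socs3, Pim3 and Junb kept their calls wherever they were tested. With a mean of at least 1 RPKM, 2148 genes were tested, 590 were higher and 399 lower, the 3 members still tested (Socs3, Pim1 and Pim3) were all lower and 0 higher, and 7 other pathway genes had 3 higher and 2 lower. With limma voom on recovered reads, 2773 genes were higher and 2778 lower, 5 members were lower, and 13 other pathway genes were higher and 11 lower. This fit tested 12657 genes, 44 of them other pathway genes. With quantile normalization 1568 genes were higher and 1722 lower of 9000 tested, against 1790 and 1435 in the main fit. In that setting 1 member (Junb) and 5 other pathway genes were higher, and the cause was not tested.

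Without 1 library, 1 to 2 members were higher, with 1 without WT replicates 1, 2 or 3 or ΔTAM replicates 2 or 4, and 4 to 7 other pathway genes were lower, with 4 without WT replicate 2 or ΔTAM replicate 1. Over all genes, 1440 to 1713 were higher and 1137 to 1387 lower in these fits. Socs1 ranged from -0.032 to 0.233, with the changed sign without ΔTAM replicate 2. With a replicate block, 1557 genes were higher and 1239 lower, 1 member was higher (Junb), and Il6st, Stat3 and Pim1 had adjusted p of 0.0959, 0.0752 and 0.0604. The labels do not say that numbers mark shared cultures. Deviations of libraries with the same number correlated by 0.024 to 0.062, and 3 of 4 WT libraries correlated best with their own number. Correlations this weak cannot decide whether the numbers mark shared cultures. Ier3, Socs1 and Myc, with at most 30 reads in any library, had wide intervals.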
